A study of Homo sapiens with 3 samples.

Results

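Of the 997 single bases that the authors listed as deoxyuridine from cytosine deamination in HEK293T cells, 260 (26.1%) lay in 4 stretches at the centromeres of chromosomes 5, 7, 16 and 18. The members were chosen by position alone, as every row of the deamination list between 46.4 and 50.1 Mb on chromosome 5 (35 sites), 58 and 61 Mb on chromosome 7 (109 sites), 36 and 46.5 Mb on chromosome 16 (44 sites) or 15.4 and 21 Mb on chromosome 18 (72 sites). Positions are those of the deposited list, and their build was inferred to be GRCh38. These windows were drawn around places where listed sites were already seen to be dense, so that density is a description here and is not tested. Every listed site read less T in both labelled libraries than in the input, and the list appears to have been drawn on that contrast, so the gain in C described below is a description and not a finding.

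HEK293T cells derive from human embryonic kidney, express the large T antigen of SV40 and have an abnormal chromosome number, and copy number was not corrected for. All 3 libraries came from genomic DNA of this line, lysed in the presence of tetrahydrouridine, an inhibitor of cytidine deaminase, then sheared and treated with the endonuclease APE1 to clear abasic sites already present. Both N3-C labelled libraries were in addition treated with uracil DNA glycosylase, which cuts out uracil and leaves an abasic site, and with N3-C, a cytosine derivative that attaches to that site and carries an azide for biotin pull-down. The input library had neither step. The labels do not say whether labelled libraries 1 and 2 came from separate cultures, so the spread between them may be technical.

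Cytosine turns into uracil when it loses its amino group, by itself in water or through a deaminase of the AID and APOBEC family, and base excision repair normally removes the uracil. A uracil that persists is copied as T. In this assay a uracil is read as T in the input and as C after N3-C has taken its place, so a base where part of the molecules hold uracil shows a mixture of C and T that moves toward C with labelling. Human centromeres are built of alpha satellite, a tandem repeat of monomers of about 171 bases, arranged in higher-order repeats that recur many times with little difference between copies. In the GRCh38 assembly these arrays are represented by model sequences made from reads, and the order of copies in a model need not be that of any chromosome. A read from a satellite copy can also align to another copy, and a C and T difference between copies gives a mixture of C and T without any uracil. Its part in the values below was not tested, since no genome sequence was used here.

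The label of the windows was checked against the gene annotation, the only measure at hand. The RefSeq annotation of GRCh38.p14 places all 260 sites in the widest stretch of their chromosome without a gene, here called its gene-free interval, and 0 in an annotated gene. These intervals held 497 deamination sites over all chromosomes, of which the members made up 52.3%. Some windows reach into annotated genes at their edges, where no listed site lay. Whether each site lies in alpha satellite was not analysed here, so "window" is used for the stretches.

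The nearest listed sites outside stood at unequal distances from the first and last sites of each window. These were 19.5 Mb below and 5.51 Mb above on chromosome 5, and 4.31 and 1.74 Mb on chromosome 7. They were 1.75 and 0.139 Mb on chromosome 16, and 2.32 and 11.2 Mb on chromosome 18. Sites outside gene-free intervals had a median gap of 2823.65 kb. The distances above chromosome 7, on both sides of chromosome 16 and below chromosome 18 were shorter. Inside the chromosome 16 window the widest gap was 8.10 Mb. On chromosome 5, the nearest listed sites outside lay at 27754781 and 55178010, with gains of 16.7 and 7.38 percentage points, against 16.2 and 16.8 points at the first and last site inside. On chromosome 7, the neighbours outside lay at 53864054 and 62506834 (gains of 12.997 and 17.0 points), against 20.2 and 20.9 points inside. On chromosome 18, they lay at 13663069 and 31726623 (12.7 and 10.5 points), against 10.5 and 14.6 points inside. Below the chromosome 16 window the nearest was at 34589571 (25.2 points), against 9.89 points at the first site inside. The closest outside site of any window was above that of chromosome 16, at 46536886 with a gain of 10.1 points. It lay 138.7 kb beyond the last site inside (24.6 points). The windows held 57.4% of the listed sites of chromosome 5, 83.8% of chromosome 7, 72.1% of chromosome 16 and 83.7% of chromosome 18.

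The C share of a library is its C reads over its C and T reads at a site. Over the 260 sites its median was 72.3% in the input (quartiles 65.4 and 76.9, range 51.9 to 79.8), 88.3% in labelled library 1 (83.3 and 92.5, range 63.4 to 100) and 88.9% in labelled library 2 (82.6 and 92.5, range 63.2 to 100). All 260 sites had more C in each labelled library than in the input, as did all 997 of the list. Labelled library 1 was the higher of the pair at 131 sites and labelled library 2 at 123, and their C shares differed by a median of 2.70 points. Set against each other in a two-sided Fisher exact test, labelled libraries 1 and 2 differed at 1 of the 260 sites before adjustment (p under 0.05, 0.201% of the whole list) and at 0 after it (0% of the list). Every listed site read less T in both than in the input, so this says nothing of how close they are elsewhere.

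**Figure D1:**
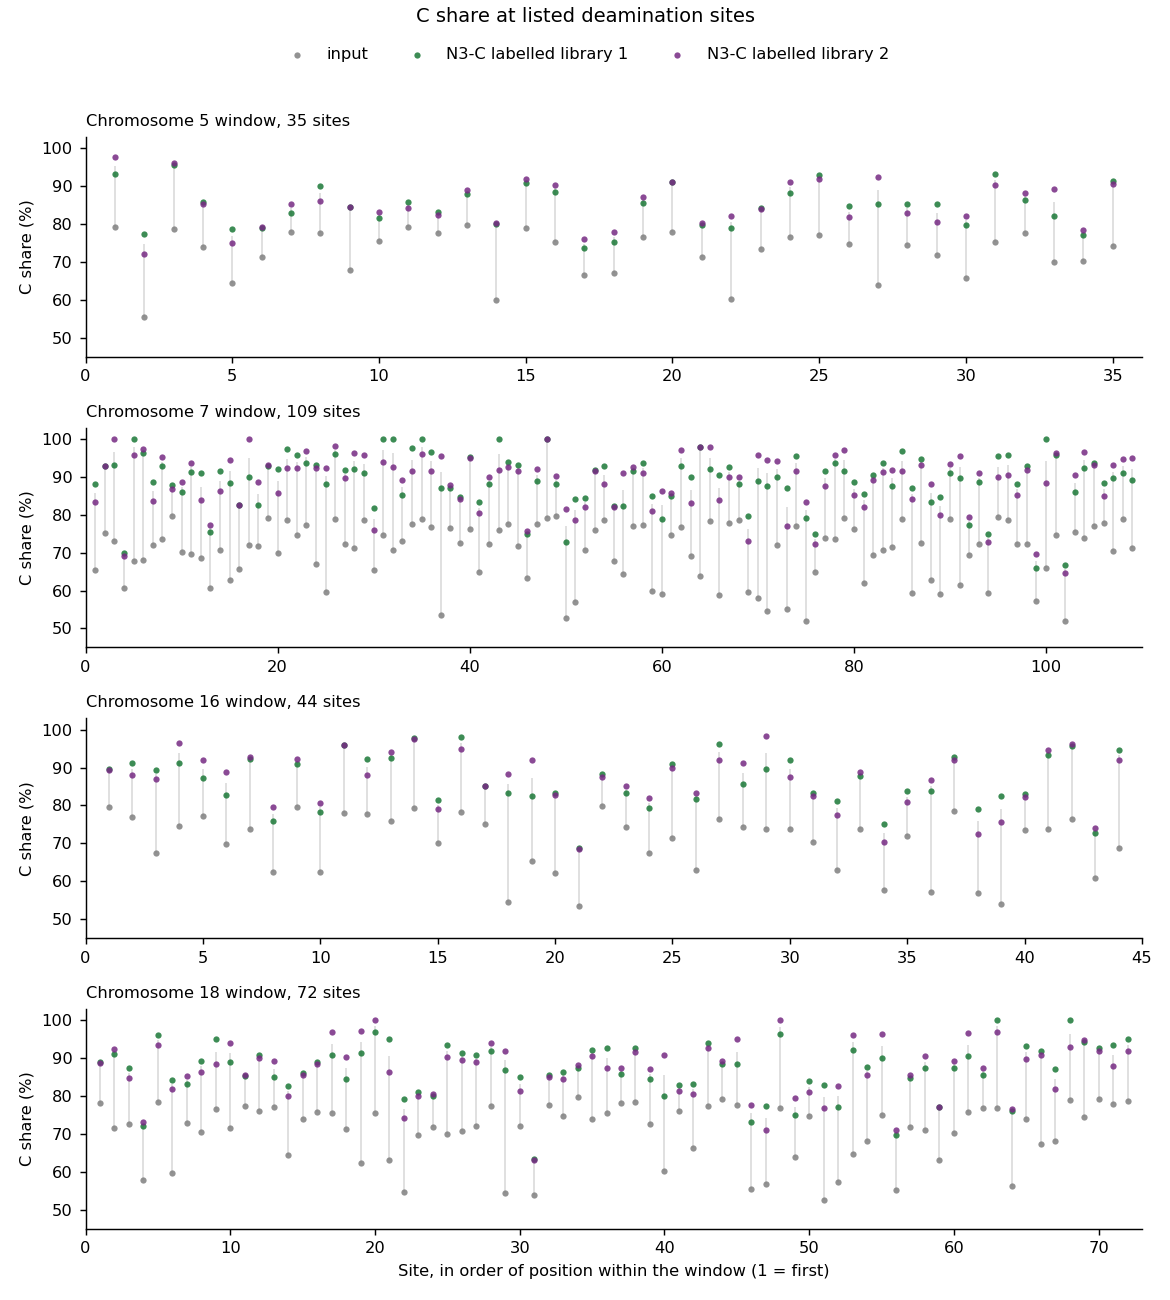
C share in percent (vertical axis) at each site, in order of position, in the windows of chromosomes 5, 7, 16 and 18, with input in grey, labelled library 1 in green and labelled library 2 in purple, and a line from the input to the labelled mean. Every labelled point lies above its input point, and no input point lies above 79.8%.

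The gain, which is the input C share taken from the mean of both labelled C shares, had a median of 16.5 percentage points over the members (quartiles 12.8 and 20.2, range 5.32 to 37.9). Put as the T share that was left after labelling, the median site kept 41.3% of its input T share. By window, the median gain was 11.4 points on chromosome 5 (quartiles 8.79 and 15.996), 17.8 on chromosome 7 (14.5 and 22.2), 16.2 on chromosome 16 (12.5 and 19.3) and 15.9 on chromosome 18 (12.9 and 19.9). The quartile ranges of chromosomes 7, 16 and 18 overlapped broadly, while the upper quartile of chromosome 5 lay close to the medians of chromosomes 16 and 18. With labelled library 1 left out the median gain was 10.8 points on chromosome 5 and 17.6 on chromosome 7, and with library 2 left out 11.8 and 18.03, so the order of this pair did not hang on 1 labelled library. Sites are not replicates, and with 1 input library no test over samples is possible, so no window is called different from another.

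**Figure D2:**
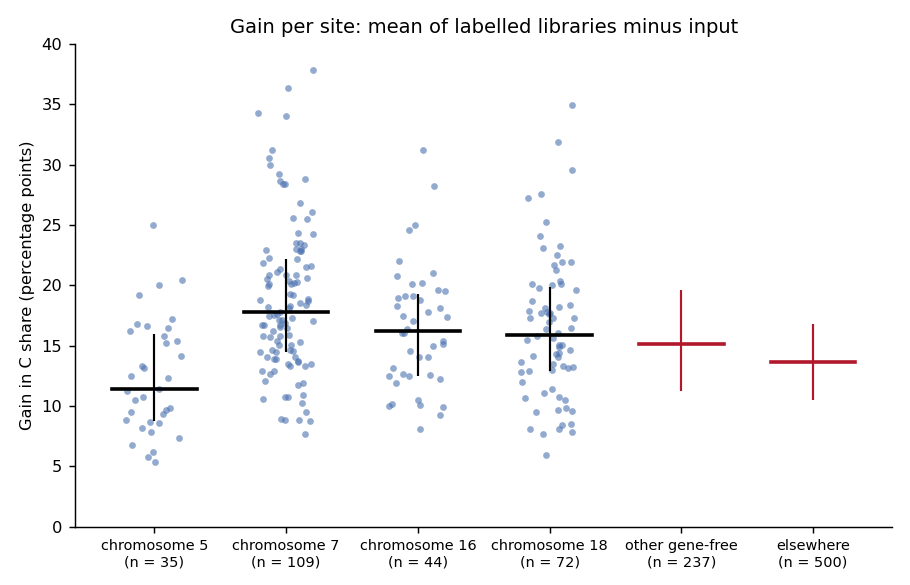
Gain in C share in percentage points (vertical axis) for each site of the 4 windows (points), with the median (thick line) and quartiles (thin line), beside the median and quartiles of the other listed sites inside and outside gene-free intervals (red). The median of chromosome 5, 11.4 points, is the lowest shown, and that of chromosome 7, 17.8 points, the highest.

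High gains were most frequent on chromosome 7, where 43 of 109 sites (39.4%) gained more than 20 points, against 3 of 35 on chromosome 5 (8.57%), 9 of 44 on chromosome 16 (20.5%) and 18 of 72 on chromosome 18 (25%). Low gains, under 10 points, made up 40% of the chromosome 5 sites, 5.50% on chromosome 7, 9.09% on chromosome 16 and 15.3% on chromosome 18. The input shares were closer together, with medians of 74.4%, 72.1%, 73.6% and 72.7% on chromosomes 5, 7, 16 and 18. They differed in their lower tail. An input C share under 60% was seen at 17 sites of chromosome 7 (15.6%), 6 of chromosome 16 (13.6%), 11 of chromosome 18 (15.3%) and 1 of chromosome 5 (2.86%). Across the sites of a window, a lower input share went with a larger gain (Spearman's rho of -0.354, -0.503, -0.422 and -0.518 on chromosomes 5, 7, 16 and 18, over 35, 109, 44 and 72 sites). Put as the input T share left after labelling, sites with a lower input share kept slightly more of it (rho of -0.139, -0.205, -0.374 and -0.138). The larger gains thus hold in points only. The input share enters all these measures and caps the gain, and close sites share reads, so these values are a description only.

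In the labelled libraries themselves, the median C share was 90.0% and 90.9% on chromosome 7 (libraries 1 and 2), 86.5% and 88.0% on chromosome 16, 87.5% and 88.3% on chromosome 18 and 85.3% and 84.4% on chromosome 5. No T read was seen in labelled library 1 at 7 chromosome 7 sites and 2 chromosome 18 sites, and in library 2 at 3 and 2 sites. On chromosomes 5 and 16 every site kept at least 1 T read in each labelled library. A single member had no T read in either, on chromosome 7 at 59146378. There the input read 79.1% C (210 reads, 95% Wilson interval 73.1 to 84.1) and libraries 1 and 2 read only C in 23 and 22 reads (lower bounds of 85.7% and 85.1%). With 0 T among the reads of both libraries, a T share of at most 6.67% is allowed, and the Fisher exact test gave an adjusted p of 0.000627.

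Each site was also tested on its reads, with both labelled libraries pooled against the input in a two-sided Fisher exact test, adjusted by Benjamini-Hochberg over all 997 listed sites. The test compares these libraries, not conditions, and it uses the contrast on which the list appears to rest, so nothing is read from the counts. The C share was higher at 201 of 260 members (77.3%), where 62.1% of the whole list passed. In other gene-free intervals 181 of 237 sites passed (76.4%), nearly the same share, and elsewhere 47.4%. Without adjustment, 217 members had a p under 0.05, as did 69.9% of the list. By window, 29 of 35 passed on chromosome 5 (82.9%), 93 of 109 on chromosome 7 (85.3%), 34 of 44 on chromosome 16 (77.3%) and 45 of 72 on chromosome 18 (62.5%). Passing followed depth in part. On chromosome 5, sites that passed had a median of 263 labelled reads and the others 119.5. The medians were 70 and 61 on chromosome 7 and 83.5 and 59 on chromosome 16, and on chromosome 18 they were nearly equal, 66 and 64. With labelled library 1 left out, 101 members passed (28.6% of the list did so), of which 19, 48, 16 and 18 lay on chromosomes 5, 7, 16 and 18. With labelled library 2 left out, 92 passed (25.3% of the list), of which 18, 45, 11 and 18 lay there.

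Depth set the windows apart more than C share did. The median site was covered by 1269 input reads on chromosome 5 (range 230 to 6665), 212 on chromosome 7 (65 to 558), 322.5 on chromosome 16 (99 to 1313) and 161.5 on chromosome 18 (81 to 1114). Of the 35 chromosome 5 sites, 17 were deeper than every member of the other windows, and the window took 53.8% of the input reads of all members with 13.5% of the sites. Median depths in labelled libraries 1 and 2 were 108 and 118 reads on chromosome 5, 33 and 37 on chromosome 7, 34 and 38 on chromosome 16 and 31 and 33 on chromosome 18. No member had fewer than 20 reads in a labelled library, nor did any site of the whole list. Reads carry no molecular identifiers, so intervals cover counting error only.

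**Figure D3:**
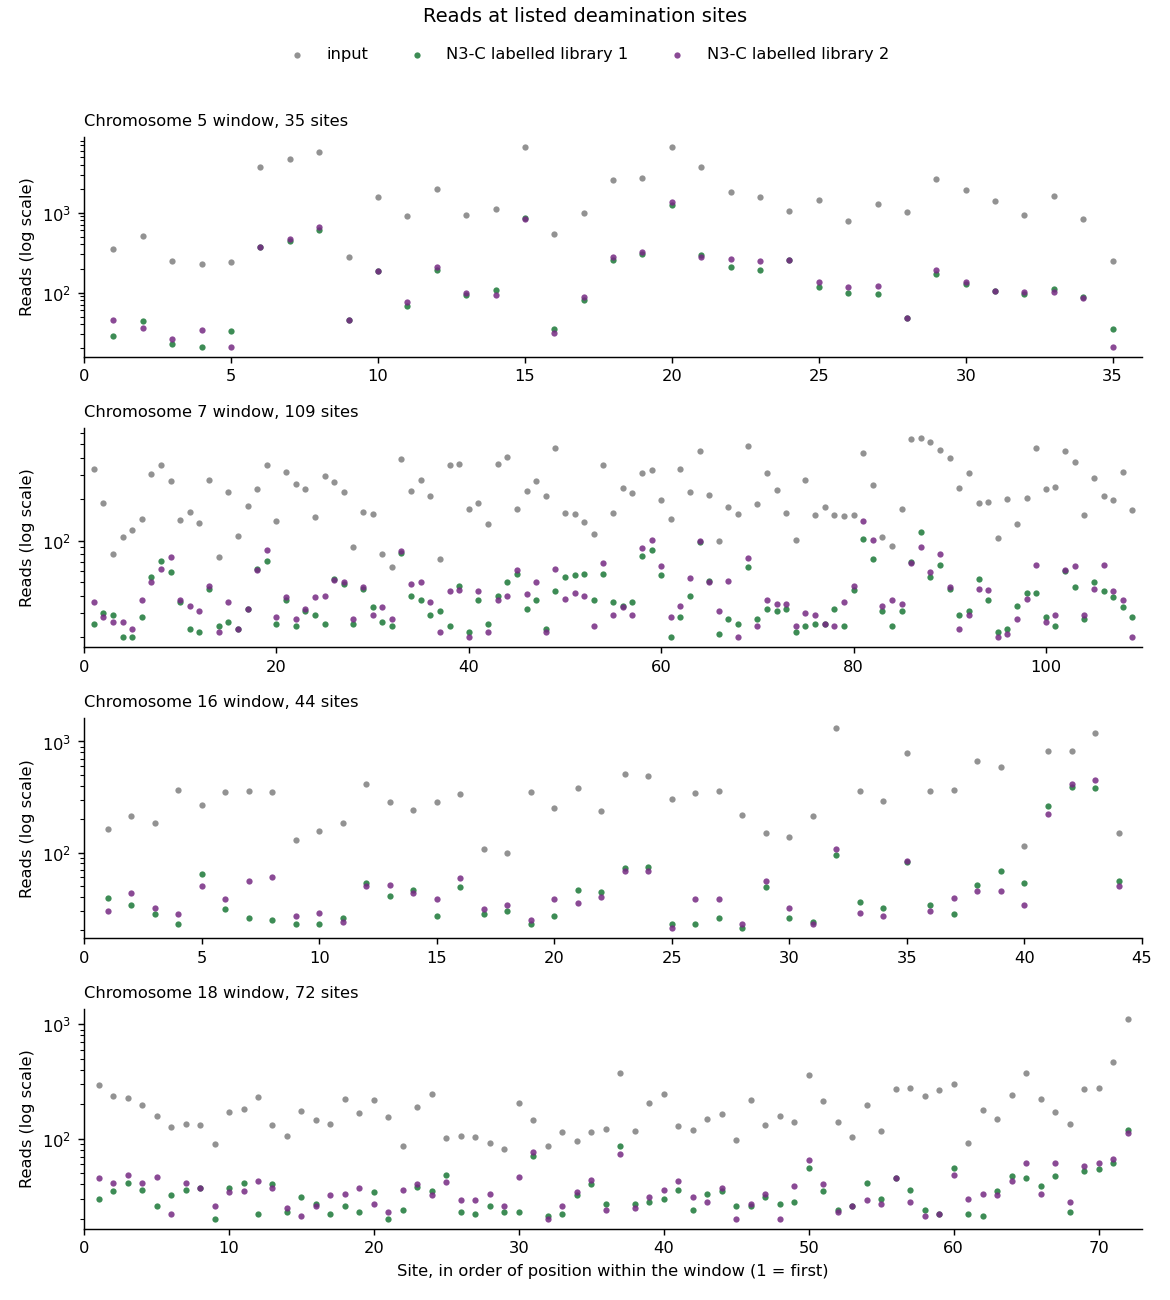
Reads at each site (vertical axis, log scale), in order of position, in the windows of chromosomes 5, 7, 16 and 18, for the input (grey), labelled library 1 (green) and labelled library 2 (purple). The chromosome 5 input points reach 6665 reads, and the labelled points stand close to each other and below the input at every site.

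The labelled libraries gave fewer reads than the input at each site, and the ratio differed along the windows. The mean of the labelled reads over the input reads had a median of 0.103 on chromosome 5, 0.184 on chromosome 7, 0.132 on chromosome 16 and 0.205 on chromosome 18, against 0.202 at the 737 other listed sites. Over all members the median was 0.168, close to the 0.169 of other gene-free intervals, while sites outside such intervals had 0.222. Library totals were not used here, so the ratio has meaning only between sites. Labelled library 2 gave 1.05 to 1.09 times the reads of library 1 in each window. Since no listed site had fewer than 20 reads in a labelled library, a site with few input reads could not have a low ratio.

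On chromosome 5 the sites were gathered in a short stretch. Of the 35 sites, 29 (82.9%) lay between 49609933 and 49649629, a span of 39.7 kb, at 7.31 sites per 10 kb. The other 6 were scattered over the 2.37 Mb of the window, at 47298735, 47913456, 48732505, 49171735, 49305355 and 49667025. The dense stretch had a median input depth of 1560 reads and the scattered sites 247.5, and their gains were 10.5 and 16.5 points. Both had nearly the same input C share, 74.6% and 74.1%. All 14 chromosome 5 gains under 10 points were in the dense stretch, and so were the 3 above 20 points.

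The deepest member of all windows was on chromosome 5 at 49625521 (minus strand), where C made up 77.8% of the C and T reads in the input (6665 reads, 76.8 to 78.8), 91.1% in labelled library 1 (1266 reads, 89.4 to 92.6) and 91.0% in library 2 (1381 reads, 89.4 to 92.4). The site at 49615464 had nearly the same depth and course, with 79.1% in the input (6613 reads), then 90.8% and 91.9%, and an adjusted Fisher exact p of 1.75e-32. Deep neighbours gained far less. At 49613945 the input read 77.6% C (1969 reads, 75.7 to 79.4) and the labelled libraries 83.2% and 82.5%, the smallest gain of all members at 5.32 points (adjusted Fisher exact p = 0.0343). The largest gain of the window, 24.96 points, was at 49643603, from 64.0% (1269 reads, 61.3 to 66.6) to 85.4% (97 reads, 77.0 to 91.1) and 92.4% (120 reads, 86.2 to 96.0). At this site 30.7% of the input T share was left, against 76.3% at 49613945.

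Closely spaced chromosome 5 sites had unequal values too. At 49626836 and 49626880, 44 bases apart on the minus strand, the input C shares were 60.2% and 73.3% at 1820 and 1560 reads, and the gains 20.4 and 10.7 points. The densest 300 bases of the window held 3 sites, at 49644004 (minus), 49644172 (plus) and 49644280 (minus). Their input shares fell in this order, 74.4%, 71.8% and 65.8%, and their gains were 9.82, 11.2 and 15.2 points. The first of these missed the threshold (adjusted Fisher exact p = 0.0534), while the others passed (adjusted Fisher exact p = 5.02e-05 and 4.67e-06).

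On chromosome 7 sites lay all along the window, but not evenly, since 34.9% of them had another within 300 bases. The 109 sites covered 2.59 Mb at 42.0 sites per Mb, and the widest gap was 0.184 Mb. In successive stretches of 0.5 Mb counted from the first site, 20, 33, 19, 17 and 17 sites were found, and 3 in the remainder. Median gains in the first 5 stretches were 18.5, 17.8, 17.5, 21.1 and 14.5 points, with no steady course along the window, and median input depths were 170, 212, 224, 170 and 239 reads. No chromosome 7 member exceeded 558 input reads.

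The lowest p of the window was at 59492806 (minus strand). It read 64.0% C in the input (445 reads, 59.3 to 68.3), 97.9% in labelled library 1 (98 reads, 92.8 to 99.4) and 98% in labelled library 2 (100 reads, 93.0 to 99.4), so that only 5.63% of its T share was left (adjusted Fisher exact p = 8.65e-23). The site next to it in p, at 60058983 (plus strand, the deepest of the window), read 72.5% C in 558 input reads, then 94.8% and 93.3% in the labelled libraries, with an adjusted Fisher exact p of 1.93e-10. The largest gain of any member, 37.9 points, was at 58895747, but on few reads. Its input share was 53.4% of 74 reads (42.1 to 64.4) and the labelled shares were 87.1% (31 reads, 71.1 to 94.9) and 95.5% (22 reads, 78.2 to 99.2). At the other end, 58338505 gained 7.68 points from 79.7% and did not pass (adjusted Fisher exact p = 0.0949). Its labelled intervals, 77.1 to 94.0 and 77.4 to 92.7, held the input value.

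The densest 300 bases of any window held 4 sites, on chromosome 7 at 59167895 (minus), 59167929 (plus), 59167989 (plus) and 59168038 (minus), within 143 bases. Input C shares were 52.9%, 57.1%, 70.6% and 75.9% at 160, 156, 137 and 112 reads. The labelled means stood 24.3, 24.3, 12.7 and 15.9 points above them, so the pair with low input shares had the larger gains in points. Of the input T share, 48.5%, 43.3%, 56.9% and 34.1% was left, which did not follow that order. All 4 passed (adjusted Fisher exact p = 0.00116, 0.000250, 0.0475 and 0.0244).

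The chromosome 16 window held sites in separate places. The first 39 lay within 1.94 Mb, from 36338886 to 38279715, and the last 5 lay within 17.1 kb, from 46381046 to 46398186, with 8.10 Mb between them that held no listed site. Whether the assembly holds sequence there to which reads can align was not checked, so the lack of sites may not be a property of the DNA. The first group had 20.1 sites per Mb. Its median input depth was 307 reads and its median gain 16.1 points, against 813 reads and 19.6 points in the last group. With reads summed the groups were nearly alike, going from 68.6% C in the input to 85.9% and 86.1% in labelled libraries 1 and 2 before the gap, and from 69.3% to 86.9% and 87.1% after it. The labelled to input depth ratio had a median of 0.120 before the gap and 0.353 after it. It ran from 0.298 to 0.488 over the last 5 sites, and 2 of the first 39 lay above 0.298. 

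Of the last group, the site at 46386692 (plus strand) read 76.4% C in the input (823 reads, 73.3 to 79.2), 95.6% in labelled library 1 (389 reads, 93.1 to 97.2) and 96.3% in labelled library 2 (414 reads, 94.0 to 97.8), with an adjusted Fisher exact p of 7.01e-30. Its neighbour at 46386126 (minus strand) read 73.8% (813 reads), 93.4% (261 reads) and 94.6% (223 reads). By contrast, 46389421 (plus strand) read 61.0% (1190 reads, 58.1 to 63.8), 72.8% (382 reads) and 74.1% (447 reads), and 68.05% of its T share was left. The site at 46398186 gained 24.6 points from 68.7%. The remaining one, 46381046, gained 9.23 points and did not pass (adjusted Fisher exact p = 0.151). Neighbours in this group stood between 566 bases and 8.77 kb apart, and their gains ran from 9.23 to 24.6 points.

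Before the gap, the largest chromosome 16 gain was 31.2 points at 37512766, from 54.5% C (99 reads, 44.8 to 64.0) to 83.3% (30 reads, 66.4 to 92.7) and 88.2% (34 reads, 73.4 to 95.3). The smallest was 8.11 points at 37816967, from 79.8%, and did not pass (adjusted Fisher exact p = 0.156). The highest labelled level was at 37281849, where an input share of 79.4% stood against 97.8% and 97.7% after labelling. The deepest site, 38267120, went from 62.9% (1313 reads, 60.2 to 65.5) to 81.1% and 77.6%. Near the end of this group, 38279319 and 38279326 stood 7 bases apart on the minus strand at 357 and 364 input reads. The former read 57.1% C in the input (51.9 to 62.1) and the latter 78.4% (73.8 to 82.4), and they gained 28.2 and 14.03 points. Sites this close are read from nearly the same fragments, and their input intervals did not overlap.

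On chromosome 18, 72 sites covered 4.58 Mb at 15.7 sites per Mb, with a widest gap of 0.350 Mb. Stretches of 0.5 Mb held from 2 to 12 sites. The first 1 Mb held 23 sites, the next 3 stretches 2, 5 and 5, and the stretches from 3.5 to 4.5 Mb 10 and 9. Input depths were low, and the last site of the window, 20562015 (minus strand), was the deepest at 1114 reads. It read 78.8% C in the input (76.3 to 81.1), 94.96% in labelled library 1 (119 reads, 89.4 to 97.7) and 91.8% in library 2 (113 reads, 85.2 to 95.6), with an adjusted Fisher exact p of 4.87e-07. Depth climbed over the last 4 sites, which lie within 358 bases, from 272 and 280 to 468 and 1114 reads, while their input shares stayed between 74.4% and 79.3%.

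The largest chromosome 18 gain was 34.9 points at 17786155, from 54.5% (81 reads, 43.5 to 65.2) to 87.0% (23 reads) and 92% (26 reads). At 16899384 the share went from 62.4% (167 reads, 54.8 to 69.5) to 91.3% and 97.3%, a gain of 31.9 points (adjusted Fisher exact p = 4.02e-06). The highest labelled level was at 16912150, with 75.5% in the input (220 reads), 97.1% in labelled library 1 (34 reads) and no T read among those of library 2 (27 reads). The smallest gain, 5.94 points at 18799217, did not pass (adjusted Fisher exact p = 0.387). In the tightest group of 3 sites, at 16006070, 16006093 and 16006146 on the minus strand, the input shares were 72.7%, 57.8% and 78.3%, and the gains 13.5, 14.9 and 16.5 points. Unlike in the chromosome 7 group, the site with the low input share did not have the larger gain here.

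Strand was not used to choose the members. A listed site is on the strand where the C was read, and over all members 127 sites were on the plus strand and 133 on the minus strand (48.8% plus, 95% Wilson interval 42.8 to 54.9), close to the 52.0% of the other listed sites (48.4 to 55.6). Within windows the balance was lost. The plus strand held 25.7% of the chromosome 5 sites (9 of 35, 14.2 to 42.1) and 26.4% on chromosome 18 (19 of 72, 17.6 to 37.6). It held 64.2% on chromosome 7 (70 of 109, 54.9 to 72.6) and 65.9% on chromosome 16 (29 of 44, 51.1 to 78.1). The intervals of chromosomes 5 and 18 thus did not reach those of chromosomes 7 and 16. They take sites as independent, which repeat copies and shared reads make doubtful, and no test was run. An uneven balance was not particular to these windows. The other gene-free intervals together had 50.2% of their sites on the plus strand, but some were uneven when taken singly. Plus sites were 9 of 32 on chromosome 10, 12 of 14 on chromosome 2 and 8 of 9 on chromosome 20. Chromosomes 9 and 12 were even, with 11 of 22 and 15 of 30.

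**Figure D4:**
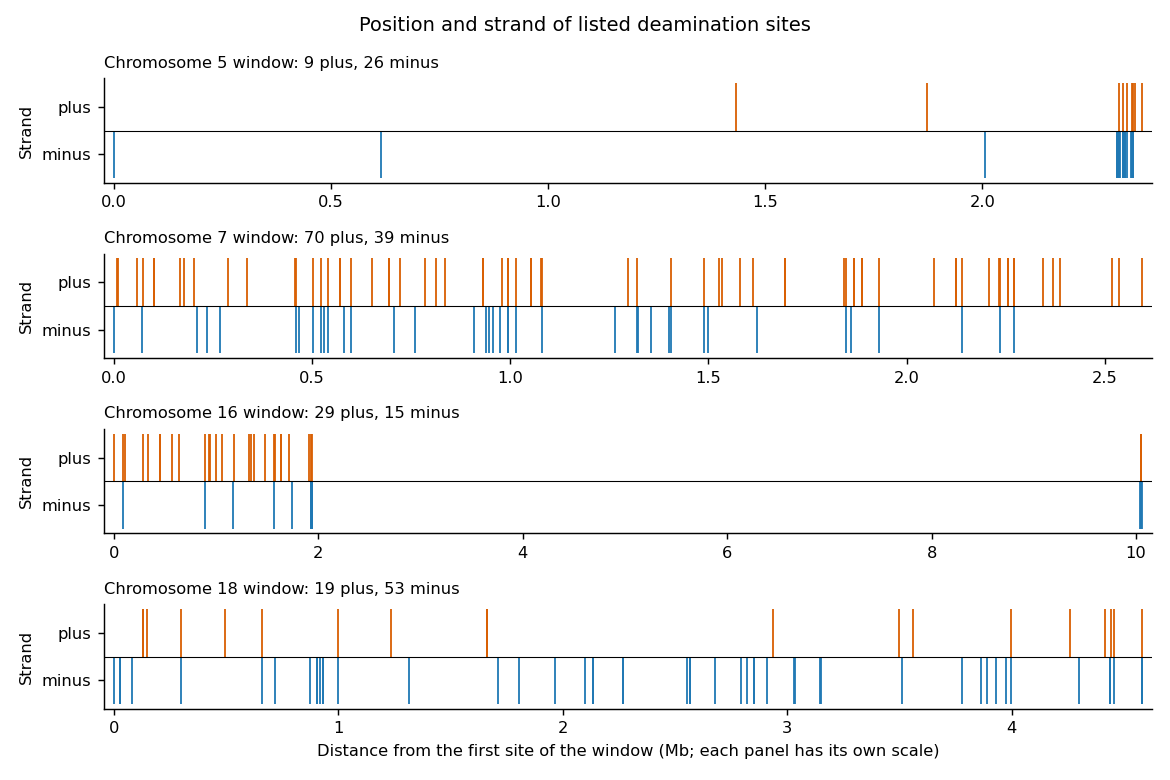
Position of each site as distance from the first site of its window in Mb (horizontal axis), with plus-strand sites above the line in orange and minus-strand sites below it in blue. Chromosome 18 has 19 sites above and 53 below the line, chromosome 7 has 70 above and 39 below, and chromosome 16 turns from mostly plus to mostly minus at the end of its first group.

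The strand balance also shifted along windows. On chromosome 16, the first 31 sites, from 36338886 to 38266221, had 26 on the plus strand and 5 on the minus strand, and the next 8, all within 12.6 kb between 38267120 and 38279715, had 1 and 7. The turning point was placed where it divides the strands most, so the contrast is a description. On chromosome 5 the dense stretch held 6 plus and 23 minus sites, and the scattered sites 3 of each. On chromosome 7 the last 3 stretches of 0.5 Mb held 30 plus and 7 minus sites, after 40 and 32 in the first 3. On chromosome 18 the minus strand held more sites in 9 of 10 stretches and as many in the other. Gains were alike on both strands of chromosome 7 (medians of 17.8 points on each). On chromosome 16 the medians were 17.0 points on the plus and 15.0 on the minus strand, and on chromosome 18 17.3 and 15.8. Chromosome 5 had 15.4 points on the plus and 10.6 points on the minus strand. There the scattered sites, with a median gain of 16.5 points against 10.5 in the dense stretch, made up more of the plus sites. Strand and place cannot be told apart on that chromosome.

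Spacing differed between the windows. Neighbouring sites lay a median of 898 bases apart on chromosome 5, 13.2 kb on chromosome 7, 21.99 kb on chromosome 16 and 26.3 kb on chromosome 18. Within 1 kb of the previous site lay 52.9% of chromosome 5 sites, against 26.9%, 25.6% and 26.8% on chromosomes 7, 16 and 18. At the shortest distances the windows were closer to each other. Gaps of at most 300 bases, the upper end of the main fragment size in the protocol, made up 23.5%, 18.5%, 18.6% and 23.9%, beside 22.9% of the gaps in other gene-free intervals and 19.3% elsewhere. In all, 97 members (37.3%) had another member within 300 bases, in 44 groups of up to 4 sites. Distances are those of the assembly, and which sites lie within its centromere models was not checked.

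**Figure D5:**
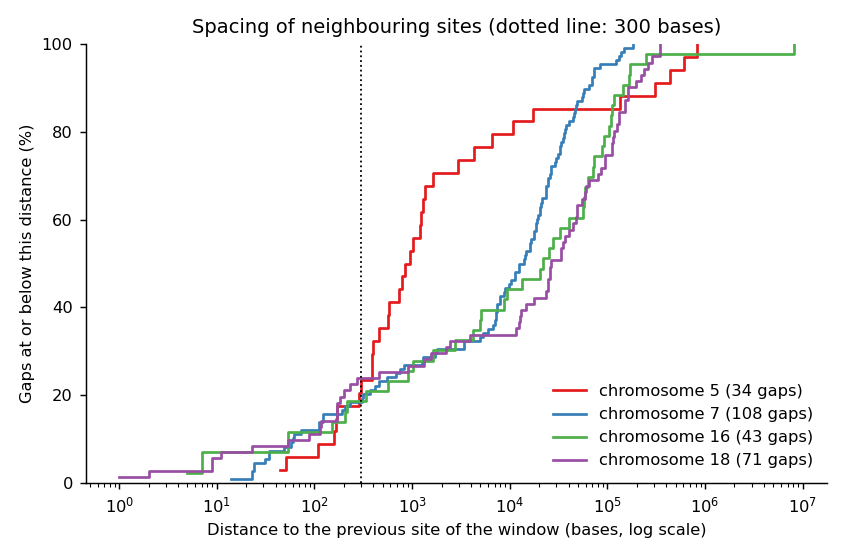
Share of gaps in percent (vertical axis) at or below a distance to the previous site in bases (horizontal axis, log scale), for chromosomes 5, 7, 16 and 18. The curves run together up to 300 bases (dotted line), and beyond it chromosome 5, with a median gap of 898 bases, separates from the others.

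Among the 62 pairs of members within 300 bases of each other, 25 were at most 60 bases apart. The closest pair was on chromosome 18 at adjacent bases 17642378 and 17642379 (both plus), with 70.9% and 72% C in the input and gains of 19.6 and 17.9 points. Of all pairs, 5 were more than 160 and at most 180 bases apart, beside 3 in the preceding and 3 in the following 20 bases, and 6 more than 100 and at most 120 bases apart. Other gene-free intervals held 4 pairs more than 160 and at most 180 bases apart, and the sites elsewhere 5. All 5 member pairs in this range had distances of 168 to 171 bases, close to the length of an alpha satellite monomer. They were 49612585 with 49612756 and 49644004 with 49644172 on chromosome 5, and 16281195 with 16281366, 16886315 with 16886484 and 16912150 with 16912320 on chromosome 18. Windows 7 and 16 had none. This was picked out after the distances were seen, and so few pairs allow no statement on periodicity.

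Sites of a pair often differed in their input mixture. Over the 62 pairs the input C shares differed by a median of 6.73 points and by more than 10 points in 21 pairs, up to 23.5 points. Gains differed by a median of 4.33 points, up to 22.3 points for 60296449 and 60296652 on chromosome 7. Pairs on the same strand numbered 35 and pairs on opposite strands 27. On chromosome 7, 15 of 23 pairs were on opposite strands, and on chromosome 18, 5 of 21.

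Reads that were neither C nor T were few. They made up a median of 1.55% of the input reads at the members (quartiles 0.812 and 3.66, highest 14.2) and 0.957% of the pooled labelled reads (0 and 1.93, highest 13.3). At the 737 other listed sites the medians were 2.04% and 1.30%. By window, the input medians were 1.26%, 1.45%, 1.68% and 2.27% on chromosomes 5, 7, 16 and 18, and the labelled medians 1.18%, 0%, 1.27% and 1.19%.

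Deoxyuridine can also come from dUTP built in opposite A, and the authors listed 67 such sites separately, which the choice of members did not use. The windows held 19 of them (28.4%), 1 on chromosome 5, 9 each on chromosomes 7 and 18 and 0 on chromosome 16. Here the input reads mostly T, with a median C share of 12.7% (range 7.12 to 17.8), and the labelled libraries had 29.0% and 28.6%. All 19 passed the Fisher exact test adjusted over that list, of which 88.1% passed. That list too appears to rest on this contrast. The median gain was 16.4 points (range 10.7 to 23.6), against 14.7 points at the 48 misincorporation sites outside the windows.

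On chromosome 7 the deepest of these sites was 58702137 (minus strand), which read 12.5% C in the input (9.58 to 16.2), 29.3% in labelled library 1 and 37.8% in library 2. It stood 117 bases from the deamination site at 58702020, which gained 30.6 points. The largest gain of the 19, 23.6 points, was at 60104977, from 7.12% (4.87 to 10.3) to 29.2% and 32.3%. On chromosome 18 the largest was at 16564647, from 17.8% to 36.7% and 46.2%, and the deepest was 20561728, from 9.87% (7.31 to 13.2) to 27.1% and 24%. The latter lay between the deamination sites at 20561666 and 20561783. A further chromosome 18 site, 16977332, stood 55 bases from the deamination site at 16977277. In all, 3 of the 19 had a deamination site within 300 bases and 10 within 10 kb. The single chromosome 5 site, 49646307, lay in the dense stretch and gained 10.7 points at 921 input reads.

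Set beside the other listed deamination sites, the members had a median gain of 16.5 points where the 237 sites in other gene-free intervals had 15.1 and the 500 sites elsewhere 13.6. Gains above 20 points made up 28.1% of the members, 21.5% in other gene-free intervals and 10.6% elsewhere. The windows were not alike in this, with 39.4% on chromosome 7, 25% on chromosome 18, 20.5% on chromosome 16 and 8.57% on chromosome 5. The low gain of the deep chromosome 5 sites was not alone of its kind. The 71 sites in the gene-free interval of chromosome 1, with a median of 610 input reads, had a median gain of 12.9 points, while the 19 of chromosome 4, with 218 reads, had 19.9. Over single sites, a deeper input went with a smaller gain in other gene-free intervals (Spearman's rho of -0.382) and elsewhere (-0.375). Over the members it did so less (-0.228). No deposited p-value passed 0.0497, a bound that a small gain meets more readily at a deep site, and its part was not tested. Between intervals this order did not hold throughout. The 9 sites of chromosome 20, with 498 reads, had a median gain of 15.5 points, the 14 of chromosome 2, with 188.5 reads, 13.9, and the 5 of chromosome 19, with 205 reads, 12.6. Median input C shares were 72.3%, 72% and 74.7% in the 3 sets. None of these differences was tested, since sites are not replicates and the list appears to have been drawn on the same contrast.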

How the data were processed

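For each listed position and strand the deposited tables hold, per the file headers, whole-number counts of total, C and T reads in 3 libraries, the same bases in percent of coverage, and a p-value. The submitters' processing notes name Trim Galore and Bowtie2. Not given in the sources used here were the build, base caller, duplicate removal, listing rule and test. GRCh38 was inferred, because many sites lie where earlier builds hold no sequence. In the whole list, input T values by the authors ran from 20 to 49.64 percent, each labelled T percent was under 0.8 of the input's, and no p-value passed 0.0497. These bounds limit input shares and gains.

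C shares were computed from the counts (pandas). Fisher exact tests (scipy 1.17.1) ran over each whole list and were checked on simulated data. Depth at a site was at least 20 reads in each labelled library. Intervals are 95% Wilson intervals. Libraries were grouped by their labelled treatment, N3-C labelling or none. Gene positions came from RefSeq's table of GRCh38.p14, and the genes at window edges are not reported here. Alternatives were a Holm adjustment, a depth minimum, C over all reads, close sites counted once, summed reads and each labelled library left out.

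Sites named are, per window, the first and last, the 2 with the lowest p, those with the largest and smallest gain, the deepest, the one with the highest labelled share, those in the densest 300 bases and the nearest ones outside. Misincorporation sites named are the deepest and the one with the largest gain. All other sites named, such as close pairs and the scattered chromosome 5 sites, were chosen after their values were seen. Members and lists were chosen with earlier results of these data known.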

Additional observations from a re-analysis of the deposited data

How the results depend on the processing

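Each count of sites past the Fisher exact test fell by more than 1.5 times when a labelled library was left out, to 92 to 101 over all members, 18 to 19 on chromosome 5, 45 to 48 on chromosome 7, 11 to 16 on chromosome 16 and 18 to 18 on chromosome 18. With Holm adjustment the counts were 66, 18, 28, 11 and 9 in the same order (16.8% of the list). With at least 100 input reads and 30 C and T reads in each labelled library they were 123 of 141 sites over all members (87.2%). By window, 55 of 59 passed on chromosome 7 (93.2%), 19 of 21 on chromosome 16 (90.5%) and 22 of 31 on chromosome 18 (71.0%). These counts fell with the number of sites, while the share that passed rose, as it did over the list (81.2%). Counting sites within 300 bases once, or C against all other reads, kept these counts within 1.5 times.

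The median gain with C over all reads was 17.3 points over all members, 19.2 on chromosome 7, 15.96 on chromosome 16 and 17.2 on chromosome 18. With the depth minimum it was 15.4, 10.6, 17.1, 16.4 and 15.1 points over all members and chromosomes 5, 7, 16 and 18. With reads summed it was 14.8, 12.2, 18.6 and 17.7 over all members and chromosomes 5, 7 and 16. With close sites counted once it was 12.3 on chromosome 5 and 16.1 on chromosome 16. Without 1 labelled library it ran from 15.8 to 16.5 over all members and 16.1 to 16.2 on chromosome 16. The median labelled C share with C over all reads was 87.4%, 83.3%, 89.7%, 86.4% and 87.2% over all members and chromosomes 5, 7, 16 and 18, with reads summed 86.9%, 86.2%, 88.5%, 86.4% and 86.7%, and with the depth minimum 87.1% over all members, 89.8% on chromosome 7 and 86.7% on chromosome 18. With close sites counted once it was 85.5% on chromosome 5 and 86.8% on chromosome 18. Without 1 labelled library it ran from 88.3 to 88.9% over all members, 84.4 to 85.3% on chromosome 5, 90 to 90.9% on chromosome 7, 86.5 to 88.0% on chromosome 16 and 87.5 to 88.3% on chromosome 18. The cause of these moves was not tested.

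The depth ratio with reads summed was 0.142, 0.112, 0.168 and 0.186 over all members and chromosomes 5, 16 and 18. Without 1 labelled library it ran from 0.0971 to 0.103 on chromosome 5, 0.135 to 0.145 on chromosome 16 and 0.196 to 0.206 on chromosome 18. Alternatives chosen after seeing the data gave a gain of 10.5 points in the dense stretch of chromosome 5 alone, and 16.1 points with a depth ratio of 0.120 for chromosome 16 without its last 5 sites. Strand shares and input C shares stayed within their intervals under every alternative run for them. With the depth minimum, though, the plus share of chromosome 16 fell from 65.9% to 52.4% of 21 sites. That is close to even and near the lower bound of its interval, 51.1%. On chromosome 7 the plus share rose from 64.2% to 69.5% of 59 sites. The order of the median gains of chromosomes 16 and 18, 16.2 and 15.9 points, turned with C over all reads. It also turned without labelled library 2, with 16.19 points on chromosome 16 and 16.25 on chromosome 18. Spacing, gains by strand and the misincorporation sites were not recomputed under alternatives. No paired analysis was possible because the input is a single library with no replicate number. At median labelled depths of 31 to 38 reads outside chromosome 5, single-site gains are known only within wide intervals.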
